A study of Mus musculus with 41 samples.

Results

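The 3151 regions described here are promoter peaks of RHOX10, out of 5147 RHOX10 peaks in the authors' deposited list (61.2%). They are the peaks whose deposited annotation class begins with promoter-TSS, where TSS is the transcription start site, so neither peak height nor expression chose them. The peaks come from CUT&Tag, which cuts and tags genomic DNA at places where an antibody is bound, in mouse germline stem (GS) cells. These cells were cultured from testes of pups of postnatal day 0 to 1, a short hairpin RNA lowered their own Rhox10, and a second lentivirus gave them HA-tagged Rhox10 that the hairpin does not target. There were 3 libraries with the HA antibody, 3 of the same cells with IgG and 3 of cells with the empty HA vector (Ctrl), and the 6 control libraries are not analysed here. Expression came from 2 further assays. For RNA-seq, testes of 3 animals per library were pooled and cells with the green Oct4-eGFP reporter were sorted, from animals labelled wild-type (4 libraries) or Rhox10-null (4 libraries), all carrying the reporter on a C57BL/6 background. For iSLAM-seq, GS cells with the same hairpin carried either Rhox10 fused to ERT2 and mCherry (Rhox10) or ERT2-mCherry alone (Ctrl), and 4-hydroxytamoxifen, which releases ERT2 fusions into the nucleus, was given for 0, 0.5, 1, 2, 4 or 8 h, with 2 libraries per vector and time (24 libraries). HA-tagged and fused Rhox10 came from vectors, so peaks and iSLAM-seq describe added protein in cultured cells.

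RHOX10 is a homeodomain protein encoded in the reproductive homeobox cluster of the X chromosome. Homeodomains commonly contact DNA with a TAAT core. In the mouse, Rhox10 acts in the transition of fetal prospermatogonia into spermatogonial stem cells (SSCs), the cells that sustain sperm production. A promoter is the stretch of DNA around a start site where RNA polymerase and its factors assemble. Most promoters of widely used genes lie in CpG islands, which are rich in G, C and unmethylated CpG, while TATA boxes mark a smaller class of promoters.

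RNA-seq libraries held 6602089 to 8278887 counts and iSLAM-seq libraries 9419615 to 12645845. Rhox10 itself was hardly detected in RNA-seq, with 11, 9, 4 and 6 counts in the libraries labelled Rhox10-null and 3, 10, 5 and 3 in those labelled wild-type, so it did not check those labels, and the directions below follow the labels. In iSLAM-seq it stood at 34.0 to 46.7 CPM (counts scaled to a common library size) with the Rhox10 vector and at 0.20 to 2.42 CPM with Ctrl, with no overlap. Summed levels of 10 germ cell markers were 239 to 249 CPM in wild-type and 103 to 110 CPM in null RNA-seq libraries, and 13 Sertoli cell markers (somatic support cells) summed to 802 to 863 and 861 to 888 CPM. One iSLAM-seq library stood apart, Ctrl 0.5 h replicate 2. Its log2 levels spread around the median of the Ctrl libraries with an SD of 0.55 over 12060 genes, against 0.16 to 0.24 in the other 11 Ctrl libraries. The main iSLAM-seq counts below are therefore also given without it. In RNA-seq, 8 genes with over 1% of the counts each took 79.1 to 79.4% of wild-type and 73.8 to 74.5% of null counts, and the single gene Gm42418 took 58.0 to 59.4% and 51.0 to 52.7%. Whether cells of a type were fewer or held less RNA cannot be told apart in bulk libraries.

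Stretches of high-scoring coding-gene peaks and of peaks at genes named in the expression results are shown first, so that the letters searched for can be seen in place. Each is a stretch of at most 200 bases near the peak centre that holds no annotated exon, read 5′ to 3′ on the strand of the gene from the mm10 (GRCm38) genome. Capitals mark every match, on either strand, to the CCAAT box (letters CCAAT), the GC box (letters GGGCGG), the homeobox core (letters TAAT), the cyclic AMP response element (letters TGACGTCA), the ETS site (letters CCGGAAG) and the ZBTB33 core (letters TCTCGCGA). A match on the other strand appears as its reverse complement, for example ATTGG where the box lies on the opposite strand. Overlapping matches run together. Add3 (chr19:53142532-53142691, + strand) and Sin3a (chr9:57076127-57076286, + strand) are among the 10 coding-gene peaks of highest score. Egr4 (chr6:85513590-85513749, - strand), Bcl6b (chr11:70229993-70230152, - strand) and Erbb3 (chr10:128589719-128589878, - strand) are genes that were lower in the null libraries. Fosl2 (chr5:32135605-32135764, + strand), Dusp1 (chr17:26508581-26508740, - strand) and Btg2 (chr1:134079174-134079333, - strand) are genes whose difference between vectors changed after inducer.
Add3: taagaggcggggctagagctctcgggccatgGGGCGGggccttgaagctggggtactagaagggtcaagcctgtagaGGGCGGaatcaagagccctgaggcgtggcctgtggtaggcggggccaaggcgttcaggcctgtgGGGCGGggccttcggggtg
Sin3a: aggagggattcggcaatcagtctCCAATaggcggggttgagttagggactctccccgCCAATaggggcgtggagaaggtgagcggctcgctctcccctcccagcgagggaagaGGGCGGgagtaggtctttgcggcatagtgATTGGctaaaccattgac
Egr4: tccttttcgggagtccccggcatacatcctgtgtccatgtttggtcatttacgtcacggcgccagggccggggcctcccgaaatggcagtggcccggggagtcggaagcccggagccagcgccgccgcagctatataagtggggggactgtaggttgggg
Bcl6b: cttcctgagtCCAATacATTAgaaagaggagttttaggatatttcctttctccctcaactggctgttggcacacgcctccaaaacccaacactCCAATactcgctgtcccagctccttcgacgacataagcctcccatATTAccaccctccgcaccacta
Erbb3: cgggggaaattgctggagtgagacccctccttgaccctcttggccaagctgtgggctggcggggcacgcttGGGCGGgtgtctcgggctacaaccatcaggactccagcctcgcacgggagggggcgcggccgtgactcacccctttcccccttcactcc
Fosl2: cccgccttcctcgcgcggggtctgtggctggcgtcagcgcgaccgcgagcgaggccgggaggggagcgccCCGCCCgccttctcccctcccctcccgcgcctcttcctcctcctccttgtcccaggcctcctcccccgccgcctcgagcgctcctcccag
Dusp1: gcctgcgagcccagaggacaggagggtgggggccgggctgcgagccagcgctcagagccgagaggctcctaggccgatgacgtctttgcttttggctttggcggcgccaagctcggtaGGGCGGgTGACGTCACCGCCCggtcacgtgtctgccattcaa
Btg2: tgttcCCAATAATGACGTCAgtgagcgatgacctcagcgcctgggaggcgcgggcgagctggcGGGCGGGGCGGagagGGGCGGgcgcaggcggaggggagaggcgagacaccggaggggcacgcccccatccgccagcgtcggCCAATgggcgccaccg
The Add3 stretch held 3 GC boxes. At Sin3a, 3 CCAAT boxes and 1 GC box lay within 160 bases. Egr4 held none of the 6 motifs in this stretch, and no stretch shown held an ETS site or a ZBTB33 core. Bcl6b held 2 CCAAT boxes and 2 homeobox cores. Erbb3 and Fosl2 held 1 GC box each. Dusp1 and Btg2, both induced by growth factor and stress signals, held 1 cyclic AMP response element each beside 2 and 3 GC boxes. Btg2 also held 2 CCAAT boxes and 1 homeobox core, which overlaps the first of them.

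Promoter peaks had higher scores and were shorter than the other RHOX10 peaks. The score is the authors' own value per merged peak, its definition is not given in the sources used here, and no replicate spread comes with it, so these are descriptions with no test. The median score was 166 (quartiles 95.3 and 296, range 15.8 to 2801), against 79.8 over the 1996 other peaks. Among those, peaks in 5′ UTRs had a median of 106, introns 80.9, exons 80.7 and intergenic peaks 62.9. A score of at least 500 was reached by 289 promoter peaks (9.17%) and 46 others (2.30%). When all peaks were put in 10 equal bins by score, 28.0% of the lowest bin and 87.2% of the highest were at promoters. Median length was 568 bases, against 677 for the others, and score and length ran in opposite directions across promoter peaks (Spearman rho -0.37, a description over peaks that share libraries). All 3151 list all 3 RHOX10 libraries as sources.

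**Figure D1:**
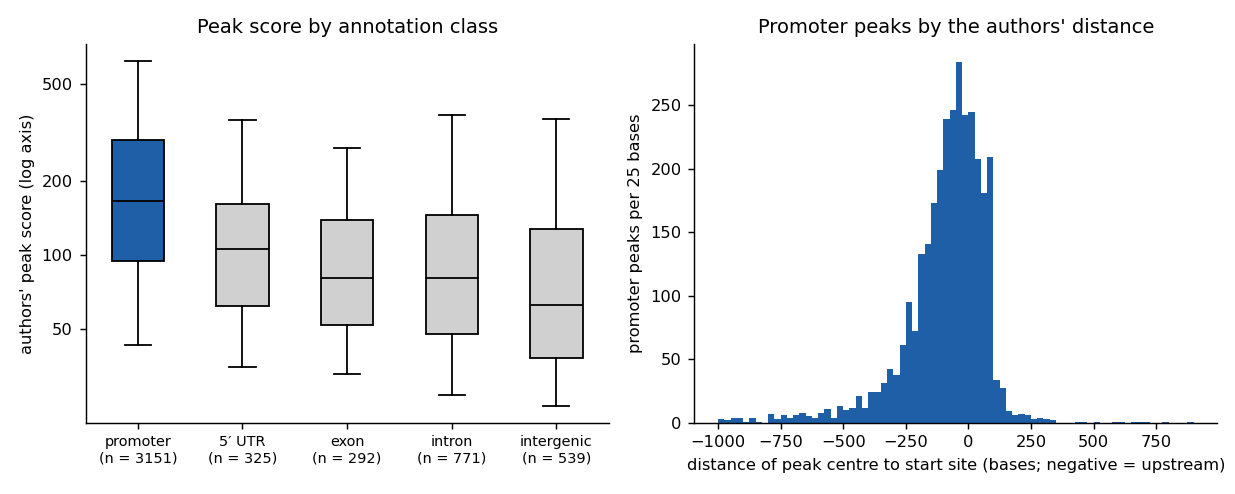
Left, box plots of the authors' peak score (log axis) by annotation class, with median, quartiles and whiskers from the 5th to the 95th percentile. Right, the number of promoter peaks per 25 bases of the authors' distance from peak centre to start site, negative upstream; most lie from 250 bases upstream to 100 downstream, and the promoter median of 166 is above that of each other class drawn.

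Peak centres gathered just upstream of start sites. By the authors' distance, 1863 (59.1%) lay within 100 bases of the start site, 1088 (34.5%) over 100 and up to 500 bases upstream, 98 (3.11%) farther upstream and 102 (3.24%) more than 100 bases downstream. Scores were highest not at the start site but upstream of it: the median was 206 over 100 to 500 bases upstream, 153 within 100 bases, 117 farther upstream and 158 downstream. Peaks with coding start sites on both strands within 1 kb (496, 15.7%), as at divergent gene pairs, had a median score of 236, against 159 for the rest. The annotation limit runs about 1000 bases upstream to 100 downstream. Just inside it upstream were Trerf1 at -996 bases (score 229), Kazald1 at -983, Zfp583 at -981, Htr1b at -966 and Cdc42bpa at -957. Just outside were Kmt2d at -1001 (score 113), Ntn5 at -1015, Mex3b at -1025 (309), Zbtb14 at -1025 (261) and Eapp at -1031. Downstream the limit was not sharp by this distance, since 102 promoter peaks lay beyond 100 bases. The annotated transcript was also the nearest one for 2317 peaks (73.5%), so this distance alone does not set the class. At 100 bases, Adamts19, Coq7, Greb1l, Zzef1 and Dmtf1 had promoter peaks. At 101 bases, the peaks of Dph6 (score 397), Epb41l5, Use1, 2810410L24Rik and Atf7ip were of other classes.

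The 10 highest scores at coding genes ran from 1770 to 1178. Add3, which encodes a cytoskeletal adducin, had a score of 1770. Msh3, a DNA mismatch repair gene, had 1590. Vkorc1l1, a relative of vitamin K epoxide reductase, followed with 1572. Cdca2, a mitotic regulator, had 1489, and Srgap2, a regulator of cell shape and migration, 1415. Sertad2 carried 2 promoter peaks, with scores of 1357 and 580. Tsga10, a testis gene of the sperm tail, had 1314, Mphosph9 1210, Sin3a (scaffold of a histone deacetylase complex) 1205 and Rab1a (vesicle traffic) 1178. A single higher score of 2801 lay at the pseudogene Pisd-ps3 on an unplaced scaffold. Of 3141 gene names, 10 had 2 promoter peaks each, among them Ing1 (511 and 291), Sertad2, Hnrnpf, Bcl2l11 and Nfkbiz.

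Across chromosomes, promoter peaks numbered 9.39 per 100 coding genes on chromosome 7 and 9.92 on the X, the lowest 2 densities, and 21.2 on chromosome 12, the highest. The 94 X-linked peaks had a median score of 100, the lowest of the placed chromosomes. No Rhox gene had a promoter peak (0 of 34), and none of 1093 olfactory receptor genes had one. By the table's gene type, 3023 peaks were at coding genes, 114 at non-coding RNA genes and 12 at pseudogenes. Not every link is exact. For 7 peaks the linked gene's GENCODE start sites lay over 10 kb away; one is named Dmrt1 but lies at the start of Kank1, 98962 bases from the nearest start of Dmrt1, and one at Riok2 carried the identifier of Chd1. A further 6 names had been turned into dates by a spreadsheet (such as March3, score 456, and Sept7, score 331). Genes were therefore linked by the table's Ensembl identifier, which gave 3100 genes in the count tables.

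Near the peak centres, GC boxes and CCAAT boxes were found more often than homeobox cores. In 300 bases around the peak centres, the median GC content was 66.3% and the median CpG ratio (observed over expected) 0.82, and 89.3% had a ratio over 0.6. A GC box was found in 78.5%, a CCAAT box in 40.1%, an ETS site in 18.6%, TAAT in 26.0% and the pair TAATTA, which contains TAAT, in 0.83%. Over whole peaks, which are longer, TAAT was in 53.8% and a CCAAT box in 54.6%. TATAAA, the TATA box, was in 2.76%, the ZBTB33 core in 3.11%, the cyclic AMP response element in 3.30% and TGANTCA, the AP-1 site, in 2.48%. Among all 32817 RefSeq promoter windows of 300 bases (250 before to 50 after a start site), a GC box was in 35.6%, a CCAAT box in 37.4%, an ETS site in 8.86%, TAAT in 58.0%, TAATTA in 5.30%, TATAAA in 13.6%, the ZBTB33 core in 0.99%, the cyclic AMP response element in 1.79% and the AP-1 site in 7.81%. These windows are mostly poorer in CpG (35.8% with a ratio over 0.6).

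A narrower comparison used coding-gene windows with a CpG ratio over 0.6, of which 2010 held a promoter peak centre and 8095 did not. With a peak, 43.4% held a CCAAT box, against 34.8% without. GC boxes stood at 81.2% and 72.4%, and ETS sites at 21.9% and 19.2%. The ZBTB33 core was in 4.43% and 2.35%, and the cyclic AMP response element in 3.68% and 3.74%. TAAT was in 30.4% with a peak and 35.6% without, TAATTA in 0.80% and 2.32%, TATAAA in 3.88% and 6.00%, and the AP-1 site in 2.19% and 3.77%. Thus the homeobox letters, like TATAAA, were less frequent in CpG-rich windows holding a RHOX10 promoter peak centre than in those without one. The median GC content was 65.3% with a peak and 64.0% without, and the median CpG ratio 0.85 and 0.83. The part of base composition in these shares was not tested. Windows without one may still hold a RHOX10 peak of another class or the flank of a promoter peak. A match is a run of letters, not a site shown to be bound.

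Motif shares also moved with the peak score. Over 4 equal bins from the lowest to the highest scores, CCAAT boxes were in 33.5%, 33.4%, 40.9% and 52.5% of peaks and GC boxes in 67.3%, 77.2%, 82.5% and 87.0%. The ZBTB33 core went from 1.27% to 4.70%, and TATAAA from 4.32% to 1.52%. TAAT showed no single direction, at 30.1%, 25.4%, 22.1% and 26.6%. Base composition hardly followed the score (Spearman rho 0.10 with GC content and 0.10 with the CpG ratio, across peaks).

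**Figure D2:**
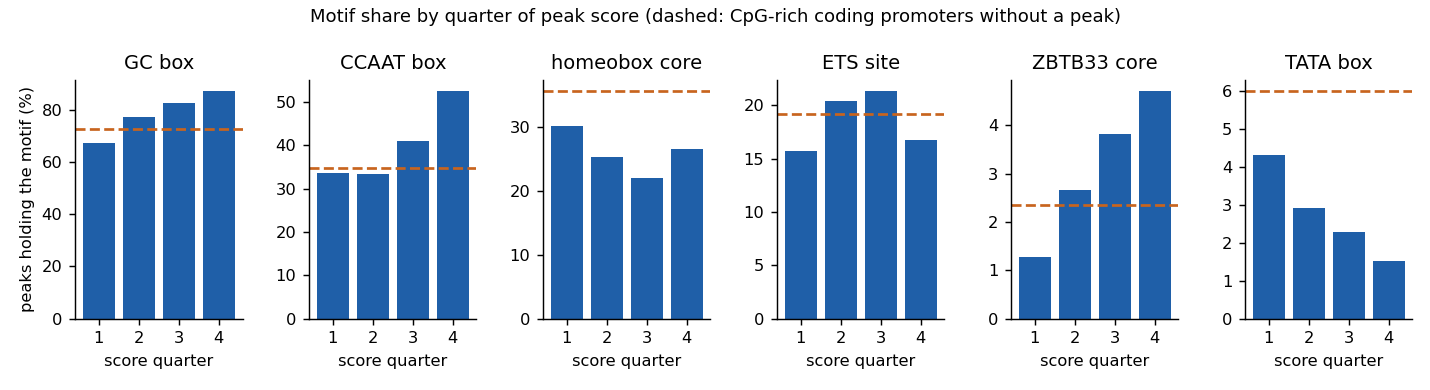
Share of promoter peaks with each motif in 300 bases around the centre, in percent, in 4 bins of peak score (1 lowest, 787 or 788 peaks each). The dashed line is the share in CpG-rich coding-gene windows without a promoter peak centre, which run from 250 bases before to 50 after a start site. CCAAT boxes rise from 33.5% to 52.5% and TATA boxes fall from 4.32% to 1.52%, while TAAT stays below its dashed line of 35.6% in all 4 bins. Bars and line differ in how the windows are placed and chosen. In windows chosen like those of the line but holding a promoter peak centre, TAAT was in 30.4%.

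Nearly all linked genes were expressed in GS cells. In iSLAM-seq, 3003 of 3100 (96.9%) passed the filter on low counts, against 37.2% of all 55536 genes, and in RNA-seq 2767 (89.3%) did. Their median level was 39.1 CPM in iSLAM-seq, against 9.48 CPM over all tested genes (40.2 and 21.4 CPM among coding genes). Per length, RNA-seq gave 2.05 CPM per kb against 1.81 over all tested genes. A total of 13 linked genes had no RNA-seq count and 15 no iSLAM-seq count in any library. In GS cells the share of tested genes with a promoter peak climbed from 1.74% in the lowest of 10 equal bins of level to 29.1% in the highest, while in sorted cells it ranged from 13.0 to 26.4%. Genes of the highest of 4 score bins had a median of 54.5 CPM in iSLAM-seq and 2.26 CPM per kb in RNA-seq, against 18.7 CPM and 1.05 CPM per kb in the lowest bin (Spearman rho of score with level 0.25 and 0.16 across genes). Counts from the linked genes made up 24.6 to 25.4% of each iSLAM-seq library, 4.28 to 4.40% of each wild-type and 5.39 to 5.56% of each null RNA-seq library.

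**Figure D3:**
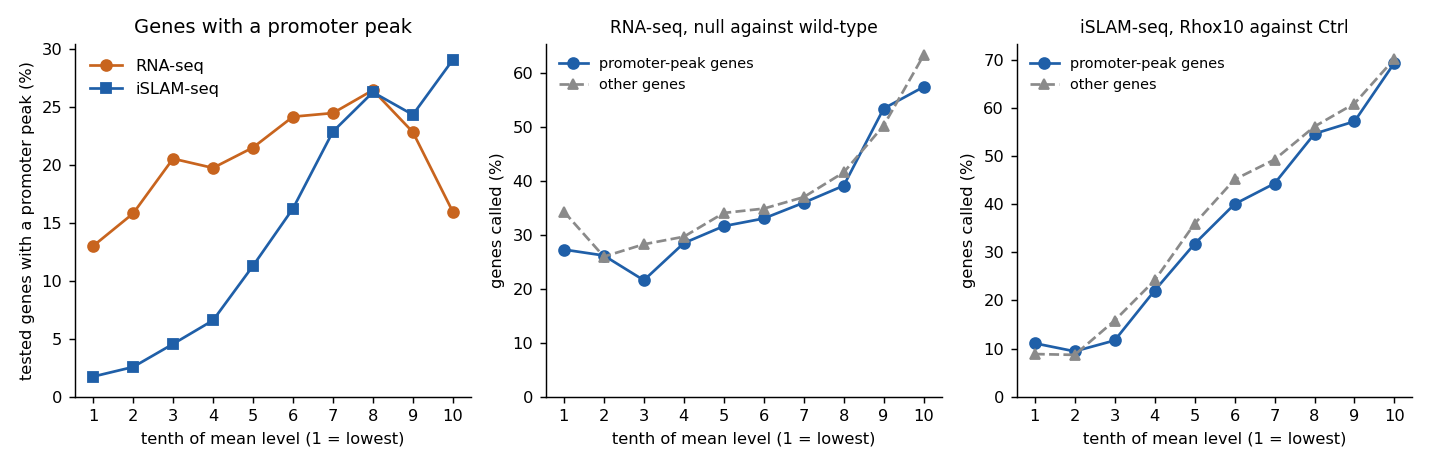
Left, share of tested genes with a promoter peak, in percent, in 10 bins of mean level (1 lowest) in RNA-seq and iSLAM-seq. Middle and right, share of genes with an adjusted p under 0.05 in the same bins, for promoter-peak genes and all other tested genes; the 2 lines run close together, with promoter-peak genes lower in 8 of 10 bins in both panels.

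Between null and wild-type sorted cells, 988 of the 2767 tested promoter-peak genes (35.7%) differed by edgeR's quasi-likelihood test (Benjamini-Hochberg adjusted p under 0.05). Of all 13538 tested genes 37.5% did. Among promoter-peak genes 437 (15.8%) were higher in the null libraries and 551 (19.9%) lower, beside 18.6% and 18.9% of all tested genes, and for 860 (31.1%) the libraries of the genotypes did not overlap, beside 32.2% of all tested genes. The typical difference was small, with a median absolute log2 value of 0.21 against 0.26 over all tested genes. The split depends on scaling: with library totals in place of TMM scaling (trimmed mean of M-values), the median over all genes moved to 0.35 on the log2 scale, and 1591 promoter-peak genes were higher and 108 lower. DESeq2 called 562. Over 4 bins of peak score the share called ranged from 35.4 to 36.0%. Since highly expressed genes are called more often, shares were also compared within 10 bins of level: promoter-peak genes had a lower share than the other genes in 8 of 10 bins (median difference -2.1 points).

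SSC and progenitor genes were lower in the null libraries, with or without a promoter peak. Of 10 such genes linked to a promoter peak 9 were lower and none higher, with a median log2 difference of -0.74 (6 lower and 1 higher with library totals). Without Dmrt1, whose linked peak lies at Kank1, 8 of 9 were lower (5 with library totals). Of the 16 tested list members without one, 10 were lower and none higher. Germ cell markers moved the same way, with 9 of 10 lower, but the lists share genes, such as Id4. The part of germ cell markers in these differences was not tested. Pou3f1, a POU-domain transcription factor induced by GDNF in SSCs, had 5.11, 4.75, 7.63 and 6.92 CPM in the wild-type libraries and 2.29, 1.46, 1.80 and 1.61 CPM in the null libraries. Every null library was below every wild-type library, with a log2 difference of -1.74 ± 0.21 (SE) and an adjusted p of 9.46e-09 by edgeR. Egr4, a zinc-finger factor of the early growth response family, had 13.4, 13.8, 17.5 and 15.2 CPM against 3.50, 4.37, 5.77 and 6.05 CPM, again without overlap (-1.61 ± 0.14, edgeR adjusted p 5.74e-13). Bcl6b, a transcriptional repressor that SSCs need in culture, had 10.5, 9.51, 11.2 and 8.01 CPM against 4.80, 3.31, 5.17 and 3.50 CPM (-1.19 ± 0.15, edgeR adjusted p 2.97e-08).

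Id4, a helix-loop-helix inhibitor that marks SSCs, had 7.07, 7.98, 5.25 and 8.14 CPM in the wild-type libraries and 3.71, 3.58, 4.45 and 3.23 CPM in the null libraries (-0.93 ± 0.17). Brachyury (T) differed by -1.16, Dmrt1 by -0.56 (its peak lies at Kank1), Bmi1, a Polycomb subunit, by -0.47, Foxo1 by -0.26 and Taf4b by -0.25. With library totals Bmi1 stood at -0.12 and was not called (edgeR adjusted p 0.343). Foxo1 and Taf4b turned to 0.09 each with library totals, and neither was called by DESeq2. Tbx3 was at 1.66 to 2.61 CPM and 2.40 to 2.64 CPM and was not called. Kit, the receptor of differentiating spermatogonia, had 8.42, 14.1, 10.5 and 12.9 CPM against 6.55, 6.75, 6.49 and 5.11 CPM (-0.88, edgeR adjusted p 2.20e-06). The other differentiation gene with a peak, Rarb, had too few counts to test. Of 3 DNA methylation genes with a peak, Tet2, which oxidises methylated cytosine, was higher, at 18.9, 19.9, 16.3 and 18.4 CPM in the wild-type and 27.4, 28.5, 27.4 and 24.9 CPM in the null libraries (0.55, edgeR adjusted p 2.53e-07). Trim28 and Zfp57, which bind together at imprinted regions, were not called.

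**Figure D4:**
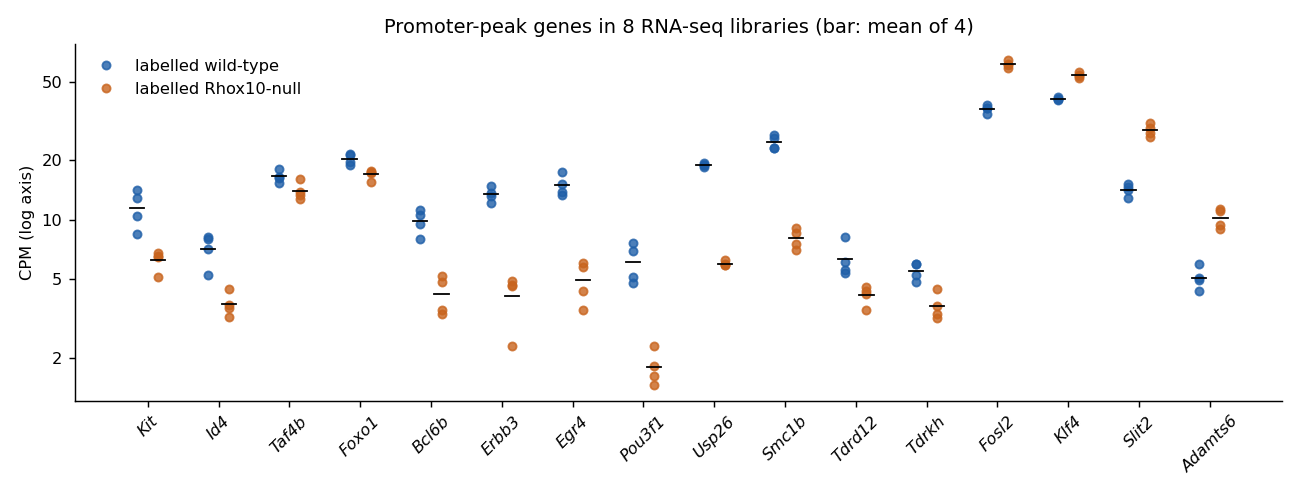
Level in CPM (log axis) of 16 promoter-peak genes in each of the 4 wild-type and 4 null RNA-seq libraries; points are libraries and bars their means. Bcl6b, Erbb3, Egr4, Pou3f1, Usp26 and Smc1b show null points all below the wild-type points, and Fosl2, Klf4, Slit2 and Adamts6 the opposite.

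Among the other genes with the largest falls were a growth factor receptor and genes of the testis. Erbb3, a receptor of the EGF receptor family, had 14.9, 13.7, 13.2 and 12.2 CPM in the wild-type and 4.59, 4.90, 4.69 and 2.29 CPM in the null libraries (-1.69 ± 0.14, edgeR adjusted p 7.47e-13). Usp26, an X-linked deubiquitinase of the testis, had 18.5, 19.0, 19.3 and 19.0 CPM against 6.22, 5.96, 5.89 and 5.92 CPM (-1.66 ± 0.11, edgeR adjusted p 8.96e-17). Smc1b, a cohesin subunit of meiosis whose start site lies beside that of Ribc2, had 23.2, 23.0, 26.9 and 25.9 CPM against 9.06, 8.61, 7.57 and 7.0 CPM (-1.61 ± 0.10, edgeR adjusted p 2.07e-17). Arpc3, a subunit of the actin-nucleating Arp2/3 complex, fell by 1.14 on the log2 scale. In the piRNA pathway, which silences transposons in germ cells, 6 of 6 tested members with a peak were lower (Mov10l1 -1.10, Pnldc1 -0.81, Tdrd5 -0.79, Tdrd12 -0.62, Tdrkh -0.60 and Mael -0.56), and 4 with library totals. Without a peak, 10 of 13 tested piRNA genes were lower.

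Among genes of at least 5 CPM whose libraries did not overlap, the largest rises were smaller than the largest falls under TMM scaling. With library totals the median over all tested genes stood at 0.35 on the log2 scale, so this comparison of sizes moves with the scaling. Slit2, a secreted guidance cue, had 14.1, 15.2, 12.9 and 14.7 CPM in the wild-type and 29.4, 30.9, 26.2 and 27.4 CPM in the null libraries (1.00 ± 0.08, edgeR adjusted p 3.52e-13), without overlap. Adamts6, a secreted protease, rose by 1.02 on the log2 scale, the mitochondrial carrier Slc25a42 by 0.93, the adhesion receptor Adgrl3 by 0.89, the sphingosine phosphatase Sgpp2 by 0.87 and Gm14326 by 0.87. Outside those limits Ddx58 rose by 1.55 (edgeR adjusted p 1.61e-05) and Srxn1 by 1.10 (edgeR adjusted p 0.0029). Fosl2, an AP-1 subunit, had 36.7, 38.2, 34.6 and 36.8 CPM against 59.0, 61.0, 64.5 and 62.0 CPM (0.75 ± 0.06, edgeR adjusted p 2.60e-14). Immediate-early genes, which respond to signals within minutes without new protein, were higher for 4 of 6 members with a peak (Fosl2, Atf3 0.42, Klf4 0.40 and Btg2 0.34), while Egr4 was lower and Dusp1 was not called. Without a peak 10 of 19 tested immediate-early genes were higher and 2 lower. Markers of 3 somatic lists moved with these rises. Higher in the null libraries were 8 of 9 tested Leydig and peritubular, 6 of 10 endothelial and macrophage and 8 of 8 erythroid markers. The first list summed to 116 to 121 CPM in wild-type and 186 to 191 CPM in null libraries. The endothelial and erythroid lists summed to 52.2 to 56.5 against 70.4 to 78.5 CPM and 27.5 to 35.5 against 118 to 125 CPM. Their part in the rises was not tested. None of these 3 lists has a member with a promoter peak. Sertoli markers did not move in 1 direction, with 3 higher and 2 lower of 12 tested. Of the Sertoli markers Wt1, Sox9 and Ctsl have a promoter peak, none of them called in RNA-seq.

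Housekeeping groups were lower under TMM scaling and, histones apart, mostly not with library totals. Among cytosolic ribosomal proteins with a peak 14 of 18 were lower (median -0.28), such as Rpl27a (-0.42) and Rps23 (-0.35). With library totals 5 were higher and none lower, and Rpl7 turned to 0.09 and Rps27a to 0.08. Oxidative phosphorylation subunits with a peak were lower for 15 of 18 (median -0.45), or 2 lower and 2 higher with library totals. Of 10 proteasome subunits 8 were lower, such as Psmd5 (-0.84), and 3 with library totals. Members without a peak did likewise, at 52 of 59, 39 of 58 and 21 of 26 lower. All 6 replication-dependent histones with a peak were lower, as were 50 of 54 without one. With library totals 5 of 6 with a peak and 39 of 54 without one were still lower. Of 13 DNA replication and cell cycle genes with a peak 8 were lower and 1, Mki67 (0.20), was higher, among them Orc1 (-0.78), Ccnb1 (-0.72), Mcm5 (-0.64), Mcm6 (-0.57) and Pole (-0.27, or 0.08 with library totals); with library totals 4 were lower and 3 higher. Of 13 chromatin regulators 3 were lower (Bmi1, Jarid2 -0.31, Smarca5 -0.29) and 2 higher (Ezh2 0.22, Ehmt1 0.21), but with library totals 9 were higher and none lower, and Jarid2 stood at 0.04 and Smarca5 at 0.05. Of the remaining lists, mitochondrial ribosomal proteins had 7 members lower of 16 with a peak, splicing factors of the SR and cyclin L group 3 higher (Ccnl2 0.57, Son 0.18, Srrm1 0.17) and 1 lower (Srsf9 -0.51) of 8, and translation initiation factors 1 higher and 3 lower of 11. With library totals these lists had 1 lower, 7 higher and none lower, and 6 higher and 1 lower.

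The promoters of genes that were higher and lower in the null libraries can be set side by side. Start sites on both strands were found at 10.8% of the higher and 19.8% of the lower genes (16.3% of all tested promoter-peak genes). An ETS site was in 10.5% and 24.1% (19.7%), and the ZBTB33 core in 2.06% and 5.99% (3.40%). The median peak centre lay 97 bases upstream for higher and 50 for lower genes (62). These shares are descriptions without a test, and the split into higher and lower moves with the scaling as given above.

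In GS cells, averaged over 0.5 to 8 h of inducer, 1466 of 3003 promoter-peak genes (48.8%) differed between the Rhox10 and Ctrl vectors by edgeR, 698 higher and 768 lower, beside 37.1% of all 20642 tested genes (18.7% higher and 18.4% lower). Without the library that stood apart 1619 of 3022 (53.6%) differed, beside 37.5%. Within bins of level the direction turned: promoter-peak genes had the lower share in 8 of 10 bins (median difference -2.91 points), although over all levels their share exceeded that of the other genes by 13.7 points. A difference was already present without inducer. At 0 h 458 promoter-peak genes (15.3%) differed, 255 higher and 203 lower, beside 10.9% of all tested genes (6.56% and 4.32%), or 782 (393 higher and 389 lower) beside 17.2% without that library. Leaving out any 1 library of 0 h left 215 to 264 calls. At 8 h 685 (22.8%) differed, 274 higher and 411 lower, beside 16.8% (8.06% and 8.79%), or 1018 (428 higher and 590 lower) beside 22.6% without it, and leaving out any 1 library of 8 h left 374 to 420 calls. With library totals the split at 8 h was 360 higher and 306 lower. The averaged share was 48.5%, 49.4%, 50% and 47.4% from the lowest to the highest of 4 score bins.

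The largest averaged rises mostly preceded the inducer. Kctd12, a potassium channel tetramerisation domain protein, had a median of 17.0 CPM over the 10 induced Rhox10 libraries (10.3 to 24.3) and of 5.93 CPM over the Ctrl libraries (3.13 to 7.61), a log2 difference of 1.67 ± 0.11 (edgeR adjusted p 1.57e-11). At 0 h it already had 15.7 and 13.2 CPM against 3.02 and 4.44 CPM. Nqo1, a quinone reductase and NRF2 target, had a median of 56.0 CPM against 18.9 CPM (1.55 ± 0.07), and 1.36 at 0 h. Srxn1, another NRF2 target, stood at 1.06 averaged. Ctsl, a lysosomal protease that Sertoli cells also make in quantity, had 3698 to 4607 CPM against 874 to 1608 CPM (1.47 ± 0.06). Igfbp3, Pcdh17 and Mfap3l differed by 1.59, 1.43 and 1.26. Of these 6 largest rises, all but Igfbp3 were called at 0 h, and without the library that stood apart Igfbp3 was called there too (edgeR adjusted p 2.02e-05). The Sertoli marker sum was 4104 to 5106 CPM with Rhox10 and 1183 to 2087 CPM with Ctrl, mostly Ctsl, while Amh and Rhox8 had no counts.

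Averaged falls included genes of the SSC list, with or without a promoter peak. Of 10 tested members with a peak 7 were lower and 1 higher. The lower ones include Dmrt1 (-0.25), whose linked peak lies at Kank1. Of 20 without one 11 were lower and 3 higher, beside 18.4% and 18.7% of all tested genes. Bcl6b had 409 and 394 CPM at 8 h with Ctrl and 139 and 131 CPM with Rhox10; its log2 difference was -0.42 at 0 h, -0.88 averaged and -1.57 at 8 h (edgeR adjusted p at 8 h 3.62e-10). Lhx2, a LIM homeobox gene, had 153 and 149 CPM against 45.6 and 47.3 CPM at 8 h, with -0.44 at 0 h, -0.92 averaged and -1.70 at 8 h. Pou3f1 ranged from 489 to 670 CPM in the induced Ctrl libraries and from 329 to 443 CPM with Rhox10, without overlap (-0.61 ± 0.03, edgeR adjusted p 7.19e-13). In the RNA-seq null libraries Bcl6b, Pou3f1 and Lhx2 (-1.85 ± 0.33) were lower as well. Efhc2 (-0.96), Hlf (-0.94), Syn2 (-0.93) and Epas1 (-0.88), a hypoxia-inducible factor, completed the 6 largest falls. Kit was higher (0.30), as was Bmi1 (0.38), in the opposite direction to the null libraries. Of the 10 germ cell markers, which include Id4 and Kit, 6 were lower and 2 higher in the average. Their sums were 1819 to 2099 CPM with Rhox10 (median 1934) and 1744 to 2442 CPM with Ctrl (median 2229), which overlap. Across both assays, 539 promoter-peak genes were called in RNA-seq and in the average, 154 of them (28.6%) with opposite signs, beside 641 of 2406 genes (26.6%) over all. Without the library that stood apart these were 177 of 605 (29.3%) and 735 of 2665 (27.6%).

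A change of the difference from its value at 0 h, the part that followed the inducer, was called for 107 promoter-peak genes (3.56%) by an edgeR F-test over the 5 induced times, beside 2.39% of all tested genes. By the 8 h minus 0 h value 19 were higher and 88 lower, beside 0.746% and 1.65%. Without the library that stood apart 344 (11.4%) were called, all 107 among them, 108 higher and 236 lower, beside 7.01% of all tested genes (2.42% and 4.59%). DESeq2 called 173, and leaving out any 1 library of 8 h left 65 to 71. Within 10 bins of level promoter-peak genes had the higher share in 1 bin and the lower share in 8 (median difference -0.49 points). From bin 1, the lowest level, to bin 4 no promoter-peak gene was called, and under 0.5% of the others were. The higher share was in bin 9, with 6.97% against 4.10%. The 88 genes had a median log2 difference of 0.37, 0.32, 0.25, 0.15, -0.13 and -0.51 at 0, 0.5, 1, 2, 4 and 8 h, and 66 were above 0 at 0 h and 82 below 0 at 8 h. Of the 88 genes 45 were called higher at 0 h, 62 lower at 8 h and 22 both. Over all tested genes 6.56% were called higher at 0 h and 8.79% lower at 8 h. The 88 genes were chosen by a negative 8 h minus 0 h value, so a fall between these times is built in. Without that library the 236 genes went from 0.11 at 0 h to -0.37 at 8 h.

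All 6 immediate-early genes with a promoter peak (Btg2, Atf3, Klf4, Fosl2, Egr4 and Dusp1) were called in this change with a lower difference at 8 h than at 0 h, also with library totals and without the library that stood apart. Of the 20 tested immediate-early genes without a promoter peak 15 were called lower too (19 without that library). Dusp1, a phosphatase that switches off MAP kinases, had 168 and 173 CPM with Ctrl and 241 and 258 CPM with Rhox10 at 0 h, and 47.0 and 45.2 against 31.0 and 24.7 CPM at 8 h. Thus it fell with both vectors, and Rhox10 went from the higher to the lower (8 h minus 0 h, -1.28 ± 0.17, edgeR adjusted p 3.55e-08). Btg2, an antiproliferative gene, had 154 and 136 against 273 and 256 CPM at 0 h, and 83.1 and 85.0 against 65.3 and 66.8 CPM at 8 h (-1.22 ± 0.15). Klf4, a zinc-finger factor of pluripotency, went from 114 and 117 against 198 and 179 CPM to 89.2 and 98.5 against 70.7 and 67.1 CPM (-1.16 ± 0.17). Fosl2 crossed from 71.0 and 82.4 against 125 and 128 CPM to 70.6 and 73.2 against 70.1 and 64.3 CPM (-0.82 ± 0.14), so here the Ctrl level stayed and the Rhox10 level came down to it. Egr4 lacked a difference at 0 h past the threshold (-0.12) and had 304 and 326 against 203 and 198 CPM at 8 h.

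**Figure D5:**
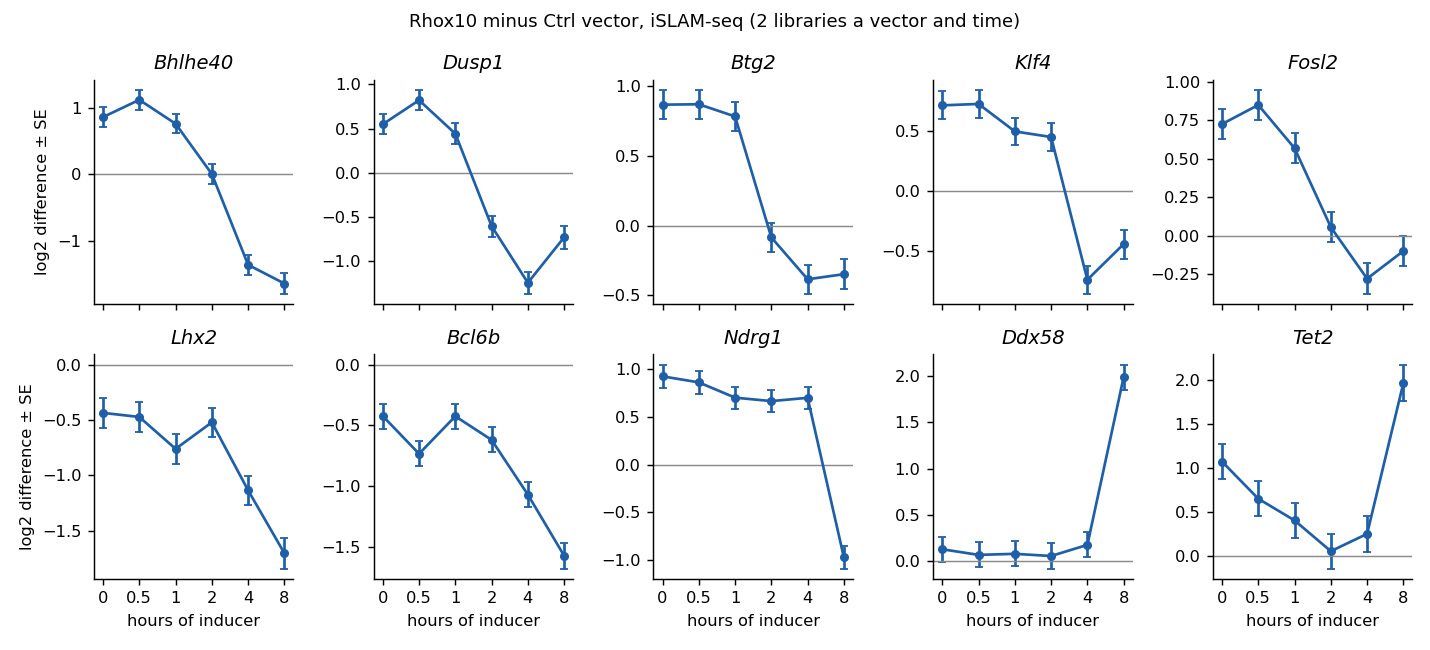
Log2 difference between the Rhox10 and Ctrl vectors (with SE) by hours of inducer, for 10 promoter-peak genes, 2 libraries per vector and time; the times are evenly spaced and each panel has its own scale. Bhlhe40, Dusp1, Btg2 and Klf4 start above 0 and end below it, Lhx2 and Bcl6b fall from below 0, Ndrg1 crosses from above 0 at 4 h to below it at 8 h, Ddx58 leaves 0 at 8 h, and Tet2 goes from 1.07 to 0.05 at 2 h and back to 1.96.

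The largest downward changes were of 1.80 to 2.59 in size on the log2 scale. Bhlhe40, a helix-loop-helix repressor of the clock, had 69.5 and 66 CPM with Ctrl and 120 and 127 CPM with Rhox10 at 0 h, and 97.6 and 94.9 against 33.4 and 28.4 CPM at 8 h (-2.50 ± 0.21, edgeR adjusted p 4.93e-09). Rasgrf1, a Ras exchange factor, had 3.20 and 4.26 against 4.18 and 5.76 CPM at 0 h and 18.3 and 19.4 against 3.42 and 4.84 CPM at 8 h (-2.59 ± 0.37), so it rose with Ctrl alone. Creb5 (-2.47), Gfod1 (-2.12), Ndrg1 (-1.90) and Fhl2 (-1.80) followed. Ndrg1 still stood higher with Rhox10 at 4 h, at 142 and 144 against 88.5 and 87.8 CPM, and lower at 8 h, at 50.9 and 51.8 against 102 and 100 CPM. Sox9, a Sertoli marker with a peak, changed from 0.16 at 0 h to -0.86 at 8 h.

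Interferon-related genes were among the largest upward changes. Of the 24 tested interferon-stimulated genes without a promoter peak 20 were called higher (23 without the library that stood apart) and none lower. Ddx58, which has a promoter peak and encodes the RNA sensor RIG-I, had 31.9 and 35.8 CPM with Ctrl against 136 and 132 CPM with Rhox10 at 8 h, and at 4 h still 41.3 and 37.7 against 43.0 and 46.4 CPM. Its peak score of 16.6 is among the lowest of the promoter peaks. Cd274, the interferon-responsive checkpoint ligand PD-L1, changed by 1.33, and Otub2, Mitd1 and Dok1 by 1.77, 1.59 and 1.26. Single libraries decided some of these calls. That of Otub2 was lost without any of 12 of the 24 libraries (edgeR adjusted p up to 0.294), that of Cd274 without either Ctrl library or Rhox10 replicate 1 of 8 h (up to 0.119), and that of Dok1 without either Ctrl library or Rhox10 replicate 2 of 8 h (up to 0.0661). Of the 19 genes, chosen by a positive 8 h minus 0 h value, 14 were called higher at 8 h and 4 were called at 0 h. Over all tested genes 8.06% were called higher at 8 h and 10.9% were called at 0 h. Without the library that stood apart, 67 of 108 were called higher at 8 h and 42 were called at 0 h. The difference of Tet2 rose too, mostly because its Ctrl level fell. With Ctrl it had 7.81 and 7.29 CPM at 0 h and 4.00 and 5.19 CPM at 8 h. With Rhox10 it had 14.7 and 17.0 CPM at 0 h and 17.9 and 17.9 CPM at 8 h.

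The promoters of the 88 genes of the downward change are described without a test. Their median score was 204, against 170 over all tested promoter-peak genes, and 2.27% had coding start sites on both strands, against 16.1% (4.24% of the 236 without the library that stood apart). A cyclic AMP response element was in 8 of 88 (9.09%, against 3.33%; 17 of 236, 7.20%), and an AP-1 site in 9 (10.2%, against 2.46%; 13 of 236, 5.51%). A CCAAT box was in 44 of 88, against 40.3% of all tested promoter-peak genes (43.6% of 236). Their peak centres lay a median of 140 bases upstream. In the 19 genes of the upward change 11 held TAAT, but 30.6% of the 108 without that library did. Of the 88 genes 85 were tested in RNA-seq, where 30 were higher and 10 lower in the null libraries. Called both in RNA-seq and in the change were 45 promoter-peak genes, 32 with opposite signs, 30 of them higher in the null libraries and lower after inducer; over all tested genes 128 of 187 had opposite signs. Without the library that stood apart 75 of 143 promoter-peak genes had opposite signs, beside 315 of 599 over all tested genes. Those of smallest RNA-seq p were Fosl2, Camk2d, Klf4, Lpp, Zbed5 and Irs2. Camk2d, a calcium-dependent kinase subunit, had 22.3, 26.4, 25.1 and 23.6 CPM in the wild-type and 33.4, 38.1, 35.5 and 33.2 CPM in the null libraries, and changed by -0.56 from 0 to 8 h. Irs2, an adaptor of insulin receptors, differed by 0.42 and changed by -0.93. Zbed5 differed by -0.76 in the null libraries, but its 8 h minus 0 h value of 0.22 ± 0.16 gives no clear sign, and its call in the change was lost on leaving out any of 12 single libraries.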

How the data were processed

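The authors deposited 1 table of merged RHOX10 peaks and 2 tables of raw read counts per gene (55536 genes), with 1 column per library for RNA-seq and iSLAM-seq. Per the file headers, the peak table gives each peak's position, score, distance to the TSS and gene; the score is the deposited value as it stands. The submitters' processing notes name Bowtie2 2.2.5, SAMtools, HOMER and mm10 for peaks, and STAR 2.5.2b, featureCounts, DESeq2, limma 3.42.2 and GRCm38 for gene tables. How controls entered peak calling, the strand setting of counting, T-to-C conversions and the age of the RNA-seq animals are not given in the sources used here. The tables had 0 further columns of samples. The labels call the iSLAM-seq and CUT&Tag samples biological replicates; RNA-seq libraries pooled different animals.

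Members and gene lists were chosen with earlier results of these data known. Peaks were linked to genes by Ensembl identifier and checked against GENCODE M21 (GRCm38). Counts were tested in R 4.3.3 with edgeR 4.0.16 (quasi-likelihood, TMM, filterByExpr, Benjamini-Hochberg over all genes tested, threshold 0.05), RNA-seq by genotype alone and iSLAM-seq by 12 group means over 24 libraries. For iSLAM-seq the vectors were compared at every time and on average over the 5 induced times, and the departure of that difference from its 0 h value was tested with an F-test. CPM used TMM-scaled library sizes. The fits were tested on simulated data. DESeq2 1.42.0 and the alternatives of the closing section were also run; those for 0 h and 8 h, the CpG-rich windows and the values without the library that stood apart were chosen after seeing the data. Sequences came from the mm10 genome, and promoter windows from RefSeq. Motifs were searched as exact letters on both strands.

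Genes named are the 10 coding-gene peaks of highest score, list members with a promoter peak (for other lists up to 3 of highest score), the 6 largest rises and falls among calls of each comparison with a mean of at least 5 CPM (RNA-seq without overlap between genotypes, averaged iSLAM-seq with 1 sign at all 5 induced times), up to 6 genes called in RNA-seq and in the change with opposite signs, and 5 peaks on each side of the annotation limits. Further list members and promoter features of called genes were named after their values were seen. One gene that the rule names is not reported here. Called means an adjusted p under 0.05. Total counts limit the precision of low genes; no interval was computed.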

Additional observations from a re-analysis of the deposited data

Results flagged for a closer look

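In RNA-seq, 7 of 126 groups of 4 libraries checked for named genes held 1 library far from the other 3 (5.56%, where chance gives about 1 in 20), all labelled Rhox10-null. These were Bmi1 at 12.2 CPM and Efhc2 at 1.06 CPM in replicate 2, Mitd1 at 1.32 CPM in replicate 2, Igfbp3 at 7.33 CPM and Pcdh17 at 2.88 CPM in replicate 3, and Kit at 5.11 CPM and Erbb3 at 2.29 CPM in replicate 4.

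For 27 named genes the difference between vectors in iSLAM-seq was not the same before and after inducer, by edgeR's F-test of the change from 0 h. Higher at 8 h than at 0 h were Ddx58 (adjusted p 6.61e-07), Otub2 (0.0302), Mitd1 (0.000489), Cd274 (0.0108), Dok1 (0.0095), Tet2 (0.00133) and Zbed5 (0.0351), the last by no more than 0.22 on the log2 scale, near its error. Lower were Rasgrf1 (1.75e-05), Bhlhe40 (4.93e-09), Creb5 (0.000605), Gfod1 (0.000489), Ndrg1 (2.67e-07), Fhl2 (4.92e-06), Fosl2 (1.18e-05), Camk2d (0.000846), Klf4 (2.17e-06), Lpp (0.000489), Irs2 (1.34e-05), Sertad2 (0.0273), Tbx3 (0.0081), Egr4 (1.91e-05), Bcl6b (6.13e-05), Lhx2 (0.000564), Dusp1 (3.55e-08), Btg2 (3.59e-07), Srxn1 (6.35e-06) and Sox9 (1.3e-08). The calls of Otub2, Cd274, Dok1, Zbed5, Sertad2 and Tbx3 were lost on leaving out some single libraries.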

How the results depend on the processing

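The 988 promoter-peak genes called in RNA-seq became 562 with DESeq2, 1699 with library totals, 47 where only log2 changes of 1 or more in size count, 522 for peaks at or above the median score and 560 for peaks within 100 bases of the start site. With library totals Foxo1 stood at 0.0891, Taf4b at 0.0947, Pole at 0.0787, Jarid2 at 0.0422, Smarca5 at 0.0531, Rpl7 at 0.0939 and Rps27a at 0.0763, against falls under TMM scaling. With that size limit, for peaks at or above the median score and for peaks within 100 bases, the averaged iSLAM-seq count of 1466 became 41, 747 and 849, the 107 of the change from 0 h became 33, 53 and 49, the 458 at 0 h became 44, 212 and 260, and the 685 at 8 h became 82, 352 and 384; these alternatives take fewer genes by construction. The change count was 173 with DESeq2, 189 without a filter on low counts, and 35 higher and 66 lower with library totals; the cause was not tested. Leaving out 1 library at a time gave 860 to 899 calls in RNA-seq, 1331 to 1750 averaged, 65 to 959 for the change, 215 to 784 at 0 h and 374 to 1021 at 8 h. The change count was 959 without Ctrl 0.5 h replicate 1, which leaves the library that stood apart alone in its group, 344 without replicate 2, and 65 to 71 without either library of Ctrl or Rhox10 at 8 h. At 0 h it was 784 and 782 without Ctrl 0.5 h replicates 1 and 2, and 215 to 264 without any 1 library of that time; at 8 h it was 374 to 420 without any 1 library of that time. With a replicate block the counts were 1000, 1480, 113, 468 and 695 (RNA-seq, averaged, change, 0 h, 8 h), and same-numbered libraries did not deviate together (correlations -0.02 to 0.01 in RNA-seq and -0.01 to 0.04 in iSLAM-seq), so the samples share only a number. Of the named genes called, 35 of 59 in RNA-seq, 62 of 69 averaged, 21 of 27 in the change, 21 of 37 at 0 h and 36 of 57 at 8 h kept their call and direction under every alternative; without the library that stood apart, 68 of 69 averaged calls and 27 of 27 change calls were kept. Depth limits genes of a few CPM, such as T, Tbx3, Gfod1 and Creb5. One score per merged peak gives no spread for the peaks.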

Other observations

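Genes of further lists with a promoter peak were measured as follows. NRF2 antioxidant genes Nqo1 and Srxn1 were higher with the Rhox10 vector averaged over the induced times, by 1.55 and 1.06 on the log2 scale, and at 0 h by 1.36 and 0.89 (edgeR's quasi-likelihood test, called at both), while the third, Gclm, was at -0.02. Of 4 p53 target genes 3 were higher averaged (Polk 0.61, Ei24 0.36 and Btg2 0.17), and Gadd45a was not called (-0.14, or -0.24 without the library that stood apart). These shares stand beside 18.7% of all tested genes higher and 18.4% lower, and members without a promoter peak moved likewise, with 10 of 11 NRF2 and 13 of 16 p53 genes higher. Of 7 tested piRNA pathway genes 5 were lower with the Rhox10 vector (4 without the library that stood apart; 9 of 13 without a peak). So were 7 of 13 DNA replication and cell cycle genes (11 without that library; 16 of 27 without a peak), among them Mki67 (-0.63), Pole (-0.61), Ccnd3 (-0.53), Mcm5 (-0.52) and Mcm6 (-0.45). Of 8 splicing factors of the SR and cyclin L group 6 were lower and none higher (7 lower without that library; 7 of 16 lower and 2 higher without a peak), among them Srsf2 (-0.32), Ccnl2 (-0.27) and Srrm2 (-0.26). Of 13 chromatin regulators 6 were lower, such as Kmt2b (-0.33) and Sin3a (-0.21), and 3 higher (7 and 2 without that library; 11 of 21 and none without a peak). Meiotic genes with a peak included Dmc1, at 3.46 to 3.73 CPM in wild-type and 1.99 to 3.36 CPM in null libraries, and not called in RNA-seq. Of 5 aminoacyl-tRNA synthetases 2 were lower in the null libraries, among them Farsb (-0.46), and none with library totals.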
